A study of Mus musculus with 24 samples.

Results

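The small Maf proteins, the cap'n'collar (CNC) factors NRF1 and NRF2, the Bach repressors and their target heme oxygenase 1 were followed in the mouse hippocampus after a night of corticosterone in the drinking water. The group was chosen by gene name and held 9 genes of the 23787 that the named array probes represented: *Maff*, *Mafg*, *Mafk*, *Maf*, *Nfe2l1*, *Nfe2l2*, *Bach1*, *Bach2* and *Hmox1*. Every probe mapped to one of them was used, which gave 12 probes of the 34566 with a gene name. *Nfe2l1*, *Nfe2l2* and *Bach2* had 2 probes each and the other genes had 1. Where a gene had more than 1 probe, the probe with the higher mean intensity represented it, and the other is given beside it.

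The samples were hippocampi of 48 male Swiss-Webster mice, singly housed and with a stated age of 12 weeks. Per the paper, mice of about this age were moved to single cages and habituated before the treatment, so they were older when killed. All animals drank water with 0.45% hydroxypropyl-β-cyclodextrin, a carrier that dissolves steroids, during a 12-h dark phase. The corticosterone-treated animals had corticosterone at 100 µg/ml in that water, and the control animals had the carrier alone. Animals were killed during the first, the fifth or the ninth hour of the following light phase, with 8 corticosterone-treated and 8 control animals at each hour. Each of the 24 two-colour arrays held 1 control animal in Cy3 and 1 corticosterone-treated animal in Cy5, so a dye bias of a probe cannot be told apart from the corticosterone effect at any single hour. It cancels in comparisons between hours within a treatment and in the change of the effect between hours.

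Small Maf proteins (MAFF, MAFG, MAFK) bind DNA but lack a transactivation domain of their own. They act as partners: with NRF1 (*Nfe2l1*) or NRF2 (*Nfe2l2*) they activate genes that carry an antioxidant response element, and with BACH1 or BACH2 they repress them. c-MAF (*Maf*) is a large Maf protein that does carry an activation domain. Heme oxygenase 1 (*Hmox1*), which breaks down heme to biliverdin, iron and carbon monoxide, is a well-known gene under both kinds of control. NRF2 is regulated mainly through the stability of its protein, which arrays of RNA do not measure.

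To show the sequence around the start sites of the small Maf genes and of *Nfe2l2*, 300-base promoter windows were taken from RefSeq (GRCm38.p6). Each window runs from 250 bases before to 50 bases after an annotated start. The table held 13 windows for 7 of the 9 genes, with no entry for *Maf* or *Hmox1*. Capitals mark matches, on either strand, to the core of the antioxidant response element (TGACNNNGC) or of the glucocorticoid response element (ACANNNTGT). The windows with a match are given 5′ to 3′ on the strand of the gene, in the order *Maff* (chr15:79346371-79346670, plus strand), *Mafk* (chr5:139791286-139791585, plus strand), *Mafg* (chr11:120633498-120633797, minus strand) and *Nfe2l2* (chr2:75704614-75704913, minus strand).
Maff: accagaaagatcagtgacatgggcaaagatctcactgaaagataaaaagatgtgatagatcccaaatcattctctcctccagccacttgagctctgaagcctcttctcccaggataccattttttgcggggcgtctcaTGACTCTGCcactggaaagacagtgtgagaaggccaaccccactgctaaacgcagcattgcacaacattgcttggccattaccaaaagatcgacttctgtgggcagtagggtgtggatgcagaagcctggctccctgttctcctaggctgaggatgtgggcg
Mafk: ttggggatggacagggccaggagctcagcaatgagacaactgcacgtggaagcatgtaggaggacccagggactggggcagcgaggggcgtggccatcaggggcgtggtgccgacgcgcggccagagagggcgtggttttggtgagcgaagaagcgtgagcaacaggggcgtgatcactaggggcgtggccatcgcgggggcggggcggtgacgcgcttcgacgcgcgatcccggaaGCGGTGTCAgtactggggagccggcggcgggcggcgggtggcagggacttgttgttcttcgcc
Mafg: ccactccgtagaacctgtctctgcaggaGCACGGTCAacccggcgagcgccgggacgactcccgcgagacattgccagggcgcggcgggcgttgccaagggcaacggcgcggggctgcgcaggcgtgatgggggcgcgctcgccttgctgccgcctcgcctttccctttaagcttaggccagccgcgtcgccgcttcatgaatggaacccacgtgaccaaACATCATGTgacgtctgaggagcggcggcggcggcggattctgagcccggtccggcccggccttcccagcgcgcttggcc
Nfe2l2: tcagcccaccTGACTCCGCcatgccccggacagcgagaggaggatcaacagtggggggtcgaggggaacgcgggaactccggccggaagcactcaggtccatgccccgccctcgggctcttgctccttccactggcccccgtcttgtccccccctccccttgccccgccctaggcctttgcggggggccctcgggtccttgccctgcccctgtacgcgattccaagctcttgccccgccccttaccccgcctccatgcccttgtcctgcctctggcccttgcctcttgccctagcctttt
The antioxidant response core was found in 4 of the 13 windows, 1 for each of these genes, and in 12.4% of the 32851 promoter windows of all genes. In the *Maff* window it occupied bases 139 to 147 as TGACTCTGC, and the other 2 *Maff* windows did not hold it. In *Nfe2l2* it occupied bases 11 to 19 as TGACTCCGC. *Mafk* (bases 238 to 246) and *Mafg* (bases 29 to 37) held it on the opposite strand. The glucocorticoid response core was found in the *Mafg* window alone, at bases 221 to 229, and in 6.85% of all windows. A match describes the letters in the window and does not show that a factor binds there.

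The arrays were of similar quality, with 60.8% to 67.2% of spots well above background in Cy3 and 64.0% to 73.5% in Cy5. On 2 arrays, intensities of the brighter probes spread further around the median of all animals than on the other 22. The fifth-hour array 7 did so in both channels (SD of 0.48 for the control and 0.49 for the corticosterone-treated animal on the log2 scale, against 0.11 to 0.22 and 0.11 to 0.21 on the other 22 arrays). The first-hour array 8 did so in the corticosterone-treated animal (SD of 0.31). Results that changed without these arrays are given below with both values. All 5 glucocorticoid receptor targets used to check the treatment rose in the first hour, led by *Tsc22d3* (1.91-fold), *Sgk1* (1.64-fold) and *Fkbp5* (1.52-fold); in the ninth hour 3 of them were lower than in control animals. Markers of excitatory neurons, such as *Camk2a* and *Neurod6*, were at high intensity, and none of the 5 excitatory markers was called at any hour (limma; at an unadjusted p under 0.05, 1 of 5 in the ninth hour and 0 before). Of all probes 17.5%, 18.1% and 13.9% were called at the 3 hours, so a count of 0 of 5 is near that background.

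In the first hour of the light phase, corticosterone raised 2 of the 9 genes, both small Maf genes: *Maff* rose 3.06-fold and *Mafk* 1.32-fold. The third small Maf gene, *Mafg*, and all CNC, Bach and large Maf members did not pass the test. Thus 2 of 12 probes were called at an adjusted p under 0.05, both higher, where 17.5% of all 56605 probes were called. In the fifth hour 4 of 12 probes were called (18.1% of all probes): *Maff*, *Mafk* and *Hmox1* were higher, and the dimmer probe of *Nfe2l1* was lower. In the ninth hour that *Nfe2l1* probe was the one of 12 called (13.9% of all probes). The median log2 fold change over the 12 probes was -0.02, -0.04 and -0.01 at the 3 hours, and that of all probes lay within 0.01 of 0.

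**Figure D1:**
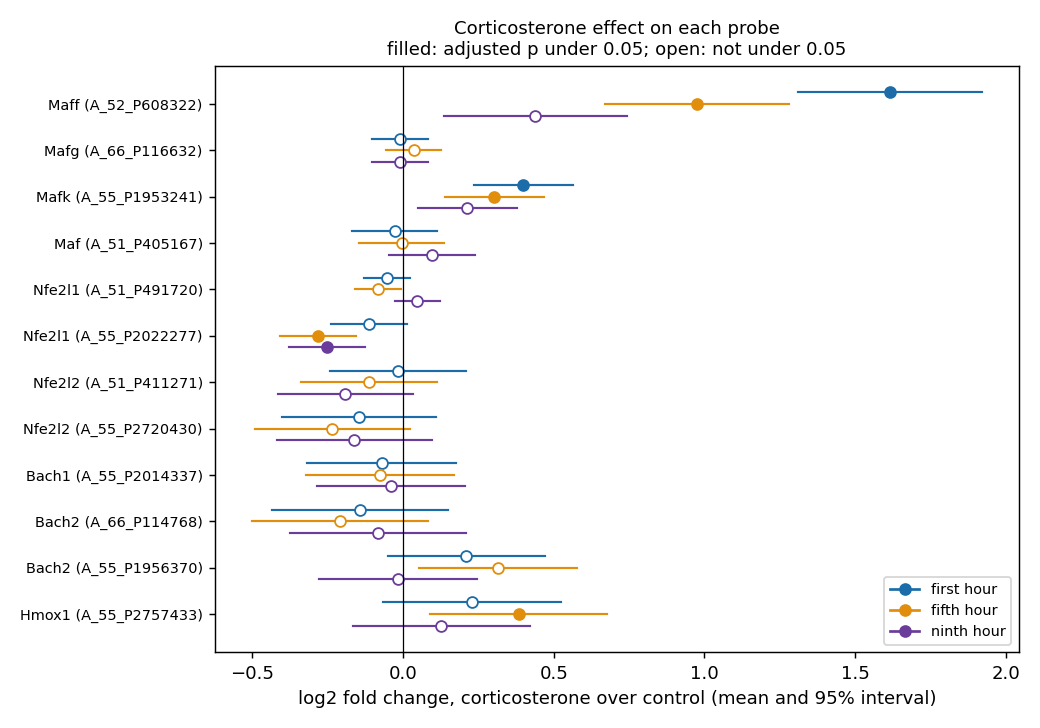
Log2 fold change of corticosterone-treated over control animals for each of the 12 probes (x axis, log2 scale) in the first (blue), the fifth (orange) and the ninth hour (purple), with 95% intervals and 8 arrays an hour; filled points passed an adjusted p under 0.05. *Maff* stands at 1.62, 0.98 and 0.44, *Mafk* at 0.40, 0.30 and 0.21, and most other intervals include 0.

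*Maff* (chr15:79346621-79359078) showed the largest change of the group. In the first hour, control animals had intensities of 32.3 to 59.2 (median 51.5) and corticosterone-treated animals 92.8 to 252 (median 149). The groups did not overlap, which was true of 1.57% of all probes, and each of the 8 arrays had the higher signal in the corticosterone-treated animal. The log2 fold change was 1.62 ± 0.15 (SE, n = 8 arrays; adjusted p = 7.02e-11, limma separate channel test), and ranged from 0.96 to 2.26 over other processing settings.

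In the fifth hour, the control animals lay at 34.9 to 71.2 (median 49.2) and the corticosterone-treated animals at 60.2 to 166 (median 94.9). The ranges overlapped by the 2 ends, and again all 8 arrays were higher with corticosterone. The log2 fold change was 0.98 ± 0.15 (SE, n = 8 arrays; adjusted p = 3.08e-05, limma), or 1.97-fold, and ranged from 0.54 to 1.54 over other processing settings with the call kept in all 15 tested (adjusted p of at most 0.00643, limma). By the ninth hour the ranges overlapped widely, at 37.8 to 64.9 (median 46.1) in control and 50.3 to 78.2 (median 66.4) in corticosterone-treated animals. With 6 of 8 arrays higher, the log2 fold change of 0.44 ± 0.15 (SE, n = 8 arrays) did not pass the adjustment (adjusted p = 0.10, limma). This depended on the setting: the value ranged from 0.22 to 0.72 over the settings with a test, and it passed with offset 0 for the p-values, with a separate fit for each hour, with processed signals and with no background correction (adjusted p of 0.014 to 0.047, limma).

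The *Maff* effect became smaller between hours, and this was tested directly. From the first to the ninth hour the log2 difference between the effects was -1.18 ± 0.21 (SE; adjusted p = 0.000374, limma), and *Maff* was the single member probe of 12 called (0.829% of all probes). From the first to the fifth hour the difference was -0.64 ± 0.21 (adjusted p = 0.62, limma; 0 of 12 member probes and 0.0389% of all probes called) and from the fifth to the ninth -0.54 ± 0.21 (adjusted p = 0.76, limma; 0 of 12 and 0.0813%). At an unadjusted p under 0.05, 1 of 12 member probes passed in the earlier step and 2 in the later, *Maff* in both.

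Within the corticosterone-treated animals, all measured in Cy5, the ninth hour had less *Maff* than the first, with a log2 difference of -1.19 ± 0.18 (adjusted p = 8.3e-07, limma; 1 of 12 member probes and 3.93% of all probes called). The animals of the ninth hour were all below those of the first, a separation seen in 1.06% of all probes. *Maff* fell by 0.63 from the first to the fifth hour (adjusted p = 0.035, limma; 1 of 12 and 0.537%), and the step of -0.57 from the fifth to the ninth did not pass (adjusted p = 0.12; 0 of 12 and 0.668%). In control animals the corresponding differences were -0.02, 0.01 and -0.03, with adjusted p of 0.90 to 0.98 (limma).

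Ordered by median, *Maff* was thus highest in corticosterone-treated animals of the first hour, then came those of the later hours in order, and last the 3 control groups. Of the steps between neighbours in this order, that from the fifth- to the ninth-hour corticosterone-treated animals and those between control groups did not pass the test. The ninth-hour corticosterone-treated animals (50.3 to 78.2) overlapped the first-hour control animals (32.3 to 59.2), and this step was not tested. The probe is dim: the control animals were well above background on 5, 6 and 6 of 8 arrays at the 3 hours and the corticosterone-treated animals on all 8, so the size of the fold change depends on the background correction. Without the 2 arrays that spread most, the effect was 1.54, 1.06 and 0.44 at the 3 hours, and the fall from the first to the fifth hour in corticosterone-treated animals no longer passed (-0.42, adjusted p = 0.32, limma) while that from the fifth to the ninth did (-0.66, adjusted p = 0.018, limma). Leaving out any 1 of 9 arrays ended the former call, and leaving out the fifth-hour array 7 was enough to make the latter (adjusted p = 0.043, limma).

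**Figure D2:**
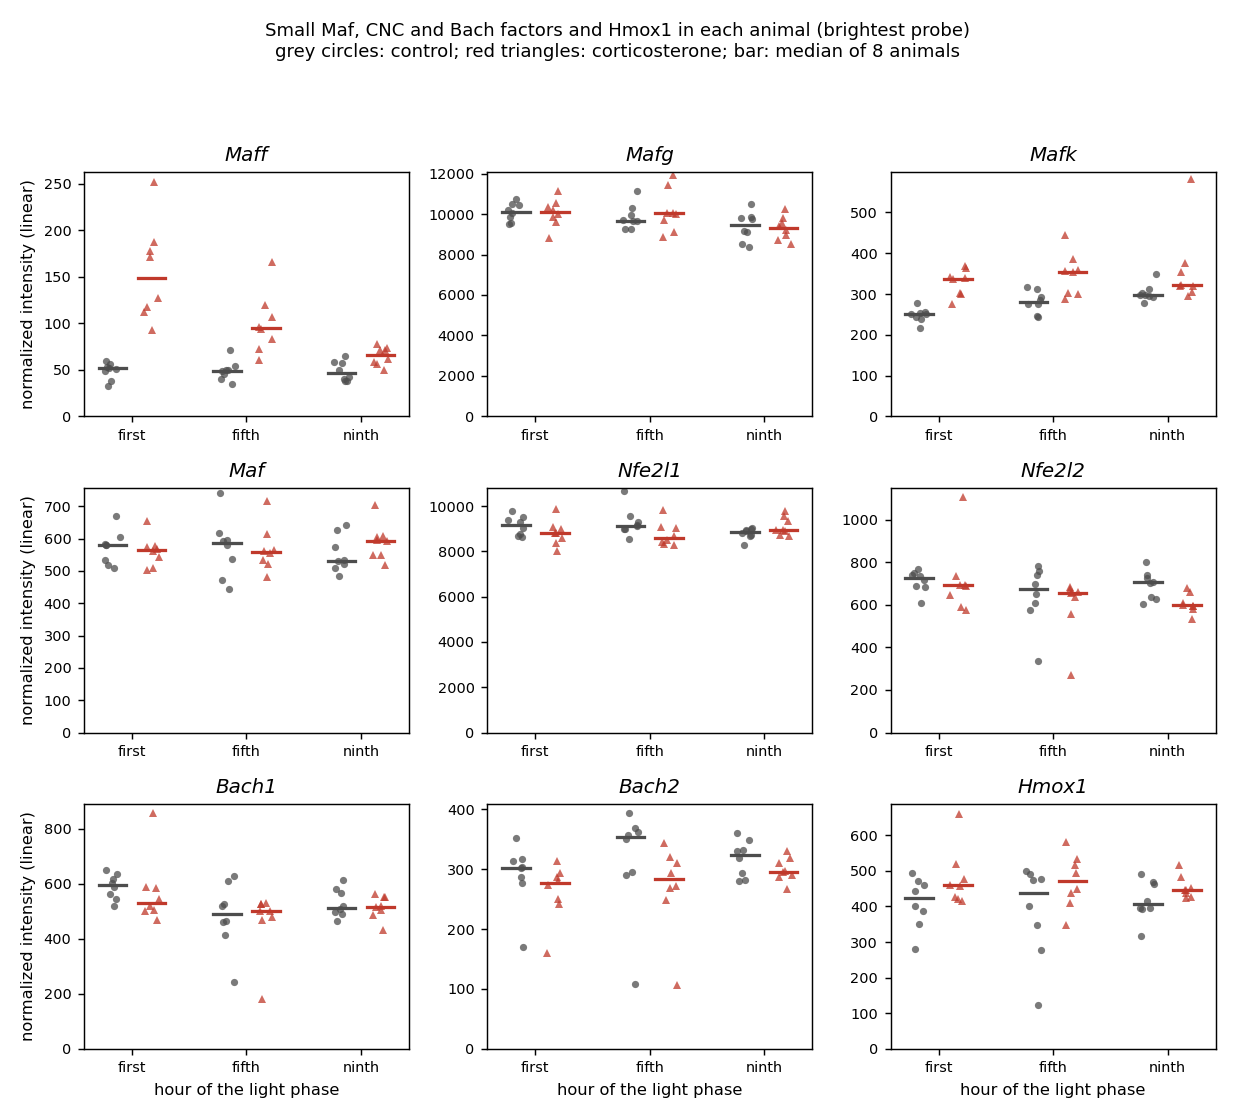
Normalized intensity (y axis, linear, arbitrary units) of the brightest probe of each gene in every animal, by hour of the light phase; grey circles are control and red triangles corticosterone-treated animals, and bars are medians of 8 animals. *Maff* in corticosterone-treated animals falls from a median of 149 to 94.9 and 66.4, while the control medians stay between 46.1 and 51.5.

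*Mafk* (chr5:139791536-139802653) rose by less. First-hour intensities were 217 to 277 (median 252) in control animals and 275 to 370 (median 338) in corticosterone-treated animals, overlapping at the ends, with 7 of 8 arrays higher. The log2 fold change was 0.40 ± 0.08 (SE, n = 8 arrays; adjusted p = 0.000474, limma). The fifth-hour animals lay at 244 to 318 (median 280) and 288 to 446 (median 355), an overlapping pair of ranges with a log2 fold change of 0.30 ± 0.08 (adjusted p = 0.00641, limma) and again 7 of 8 arrays higher.

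In the ninth hour *Mafk* lay at 279 to 350 (median 298) in control and 294 to 582 (median 321) in corticosterone-treated animals. The log2 fold change of 0.21 ± 0.08 missed the threshold (adjusted p = 0.062, limma), although 7 of 8 arrays were higher. Unlike for *Maff*, no change of the effect between hours was called (-0.19 from the first to the ninth hour, 95% interval -0.42 to 0.05, adjusted p = 0.88, limma). In control animals the ninth-hour intensities were all above those of the first hour, as in 0.323% of all probes, but the difference of 0.29 ± 0.10 did not pass the adjustment (adjusted p = 0.22, limma). Without slide 3, the fifth-hour effect of 0.34 no longer passed (adjusted p = 0.069, limma), and within single slides it was 0.57, 0.18 and 0.25. Without the fifth-hour array 2, the fifth-hour effect of 0.22 had an adjusted p of 0.052 and the ninth-hour effect one of 0.045 (limma). Without the ninth-hour array 5, the ninth-hour effect was 0.26 (adjusted p = 0.039, limma). Without array 4 of that hour, which held the value of 582, it was 0.14, and over the 24 arrays left out in turn its adjusted p reached 0.189 (limma).

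*Mafg* (chr11:120625117-120634955), the third small Maf gene, showed no difference that passed the test. Its first-hour intensities were 9503 to 10742 (median 10123) in control and 8833 to 11122 (median 10080) in corticosterone-treated animals. The log2 fold changes were -0.01, 0.04 and -0.01 at the 3 hours. The 95% interval in the first hour, -0.10 to 0.08, lies below the *Mafk* interval of 0.235 to 0.564 and the *Maff* interval of 1.31 to 1.92. The difference between these genes' responses was not itself tested.

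*Maf* (chr8:115703253-115706894), the large Maf factor, was likewise not called. Control animals lay at 507 to 669 (median 580) in the first hour and corticosterone-treated animals at 502 to 654 (median 565), wholly overlapping ranges. Its log2 fold changes were -0.03 (95% interval -0.17 to 0.11), -0.004 and 0.10.

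For the CNC activators, *Nfe2l2* (chr2:75675513-75704663), which encodes NRF2, was not called at any hour in the fit of all arrays and hours together. First-hour intensities of the brighter probe were 610 to 767 (median 724) in control and 574 to 1106 (median 692) in corticosterone-treated animals. The highest value, 1106, belonged to the first-hour array 8, and the next was 734. The log2 fold changes were -0.02 (95% interval -0.24 to 0.21), -0.11 and -0.19. Neither of the 2 arrays that spread most holds a ninth-hour animal, so leaving them out could not move the ninth-hour value of -0.19, but its SE, from the fit of all groups, went from 0.11 to 0.06 and it then passed the threshold (adjusted p = 0.24 with all arrays, 0.012 without the 2, limma). In the ninth hour 7 of 8 arrays were lower, with medians of 705 in control and 598 in corticosterone-treated animals. The second *Nfe2l2* probe was near background (27 of 48 channels well above it) and gave -0.15, -0.23 and -0.16.

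The 2 probes of *Nfe2l1* (chr11:96817414-96829968), which encodes NRF1, differed in their results. The brighter one, A_51_P491720, had log2 fold changes of -0.05, -0.08 and 0.05, with 95% intervals from -0.16 to 0.12 over the 3 hours and no call (lowest adjusted p = 0.083, limma, in the fifth hour). Without the fifth-hour array 3, that value was -0.10 and passed (adjusted p = 0.0495, limma). The dimmer one, A_55_P2022277, was well above background in all 48 channels. It lay at 241 to 320 (median 273) in control and 193 to 269 (median 222) in corticosterone-treated animals of the fifth hour, and all 8 arrays were lower with corticosterone. Its log2 fold change was -0.28 ± 0.06 (SE, n = 8 arrays; adjusted p = 0.000725, limma).

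The ninth hour gave a similar picture for A_55_P2022277, at 250 to 322 (median 286) against 203 to 260 (median 247), with all 8 arrays lower and a log2 fold change of -0.25 ± 0.06 (adjusted p = 0.00298, limma). In the first hour the value was -0.11 ± 0.06 (adjusted p = 0.20, limma) with 5 of 8 arrays lower. The change of its effect between hours was not called (-0.14 from the first to the ninth hour, adjusted p = 0.83, limma). The brighter probe was lower on 7 of 8 arrays in the fifth hour (unadjusted p = 0.0188, adjusted p = 0.083, limma) and on 2 of 8 in the ninth. Without slide 1, which held 4 of the 8 ninth-hour arrays, the ninth-hour value of A_55_P2022277 was -0.18 and no longer passed (adjusted p = 0.22, limma).

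The Bach repressors gave no call in the separate channel test with the main settings. *Bach1* (chr16:87698954-87733346), a heme-sensing repressor of *Hmox1*, had first-hour intensities of 520 to 651 (median 596) in control and 468 to 856 (median 532) in corticosterone-treated animals. Its log2 fold changes were -0.07 (95% interval -0.32 to 0.18), -0.08 and -0.04. *Bach2* (chr4:32238413-32586109), best known from B lymphocytes, lay at 171 to 352 (median 303) and 161 to 314 (median 277), with values of -0.14 (95% interval -0.43 to 0.15), -0.21 and -0.08. In both the first and the fifth hour 7 of 8 arrays were lower for *Bach2*. The fifth-hour value of -0.21 had an adjusted p of 0.27, and of 0.036 when the animals were paired by array (limma on log ratios). The lowest *Bach1* and *Bach2* values of the fifth hour all came from array 7, in both channels. The second *Bach2* probe was well above background in 3 of 48 channels and never in a control animal, so its level there has only an upper bound. In the fifth hour 2 of 8 corticosterone-treated animals were well above background, and the difference did not pass (adjusted p = 0.10, limma) except with the scanner's processed signals (adjusted p = 0.00441, limma). The control level was then set per array at the lowest signal well above background, or at the probe's own where higher. The ratio of corticosterone-treated over control animals was then 1.11-fold. Most corticosterone-treated animals were not well above background either, so this ratio is not a firm lower bound.

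*Hmox1* (chr8:75093618-75100593) was higher with corticosterone in all 8 first-hour arrays, but by an amount that did not pass the test. Control animals lay at 279 to 493 (median 423) and corticosterone-treated animals at 415 to 661 (median 459), with a log2 fold change of 0.23 ± 0.15 (SE, n = 8 arrays; adjusted p = 0.24, limma). In the fifth hour the ranges were 123 to 498 (median 437) and 349 to 581 (median 472). The log2 fold change of 0.38 ± 0.15 had an adjusted p of 0.0496 (limma), although 5 of 8 arrays were higher and 3 lower. That SE came from the fit of all 6 groups together. The SD of the 8 log2 ratios was 0.73, against 0.22 in the first and 0.19 in the ninth hour. A separate fit of the fifth hour gave an adjusted p of 0.21 (limma).

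This fifth-hour call for *Hmox1* lay at the threshold, and the size of the change depended on 1 control animal. The animal on the fifth-hour array 2 had an intensity of 123, with the next lowest at 279, and without that array the log2 fold change was 0.18 (adjusted p = 0.26, limma). The call was lost on leaving out any 1 of 19 of the 24 arrays; for the first- and ninth-hour arrays among them the value stayed at 0.38, since they hold no fifth-hour animal, and the adjusted p was 0.052 to 0.056 (limma). It was also lost without the 2 arrays that spread most (0.38, adjusted p = 0.079, limma). The ninth-hour value was 0.13 ± 0.15 (adjusted p = 0.58, limma), with ranges of 317 to 492 and 425 to 517.

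No member probe was called between hours in control animals, in which the 3 hours were compared pairwise (0 of 12 in each). Of all probes, 0.0053% were called from the first to the fifth hour, 0.516% from the first to the ninth and 0.0318% from the fifth to the ninth. At an unadjusted p under 0.05, 1, 3 and 0 of the 12 member probes passed in these 3 comparisons, in that order. The lowest unadjusted p was that of *Mafk* from the first to the ninth hour (0.00581).

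The genes that NRF2, NRF1 and their partners act on, or that control them, were read from lists that hold none of the 9 genes. Of 16 NRF2 target genes, 1 rose and 2 fell in the first hour: *Pgd*, an enzyme of the pentose phosphate pathway, rose 1.11-fold, *Slc7a11*, the cystine transporter subunit, fell to 0.83-fold and *Tkt*, transketolase, to 0.89-fold. The list's median log2 fold change was 0.00, and 13 genes did not pass, *Nqo1* (0.11), *Gclm* (0.05), *Txnrd1* (-0.01) and *Srxn1* (0.10) among them. In the fifth hour 3 rose and 2 fell, and in the ninth 2 rose, *Gclc* (1.08-fold) and *Gstm1* (1.15-fold). No gene of the list was called for a different effect in the ninth hour than in the first (limma; 0 of 16 at an unadjusted p under 0.05), against 0.829% of all probes, so that a count of 0 in a list of this size is near that background.

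Of 11 genes whose products control NRF2 or NRF1 protein, 3 rose and 1 fell in the first hour. *Sqstm1*, the autophagy receptor p62 that binds KEAP1, rose 1.15-fold (adjusted p = 0.000384, limma), *Btrc*, a ubiquitin ligase subunit that recognises NRF2, 1.15-fold, and *Rbx1*, a cullin ligase subunit, 1.08-fold. *Syvn1*, an endoplasmic reticulum ubiquitin ligase, fell to 0.89-fold. *Sqstm1* and *Btrc* were also higher in the fifth (1.13-fold and 1.17-fold) and ninth hour (1.16-fold and 1.18-fold). *Keap1*, which holds NRF2 in the cytoplasm, was not called (0.04 in the first hour, log2). Of 5 other CNC and large Maf factors, *Nfe2l3* was lower in the first hour (0.79-fold) and the other 4 were not called.

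Around heme and iron, 1 of 6 genes rose in the first hour and 3 fell. *Fth1*, the ferritin heavy chain, rose 1.11-fold. *Blvra* and *Blvrb*, the biliverdin reductases that follow heme oxygenase, fell to 0.89-fold and 0.86-fold, and *Slc40a1*, the iron exporter ferroportin, to 0.71-fold (adjusted p = 5.63e-08, limma). Constitutive *Hmox2* was 1.07-fold (adjusted p = 0.28, limma) in the first and 1.14-fold higher in the fifth hour (adjusted p = 0.021, limma). At each of the 3 hours the share called in these lists is to be read against 17.5%, 18.1% and 13.9% of all probes.

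**Figure D3:**
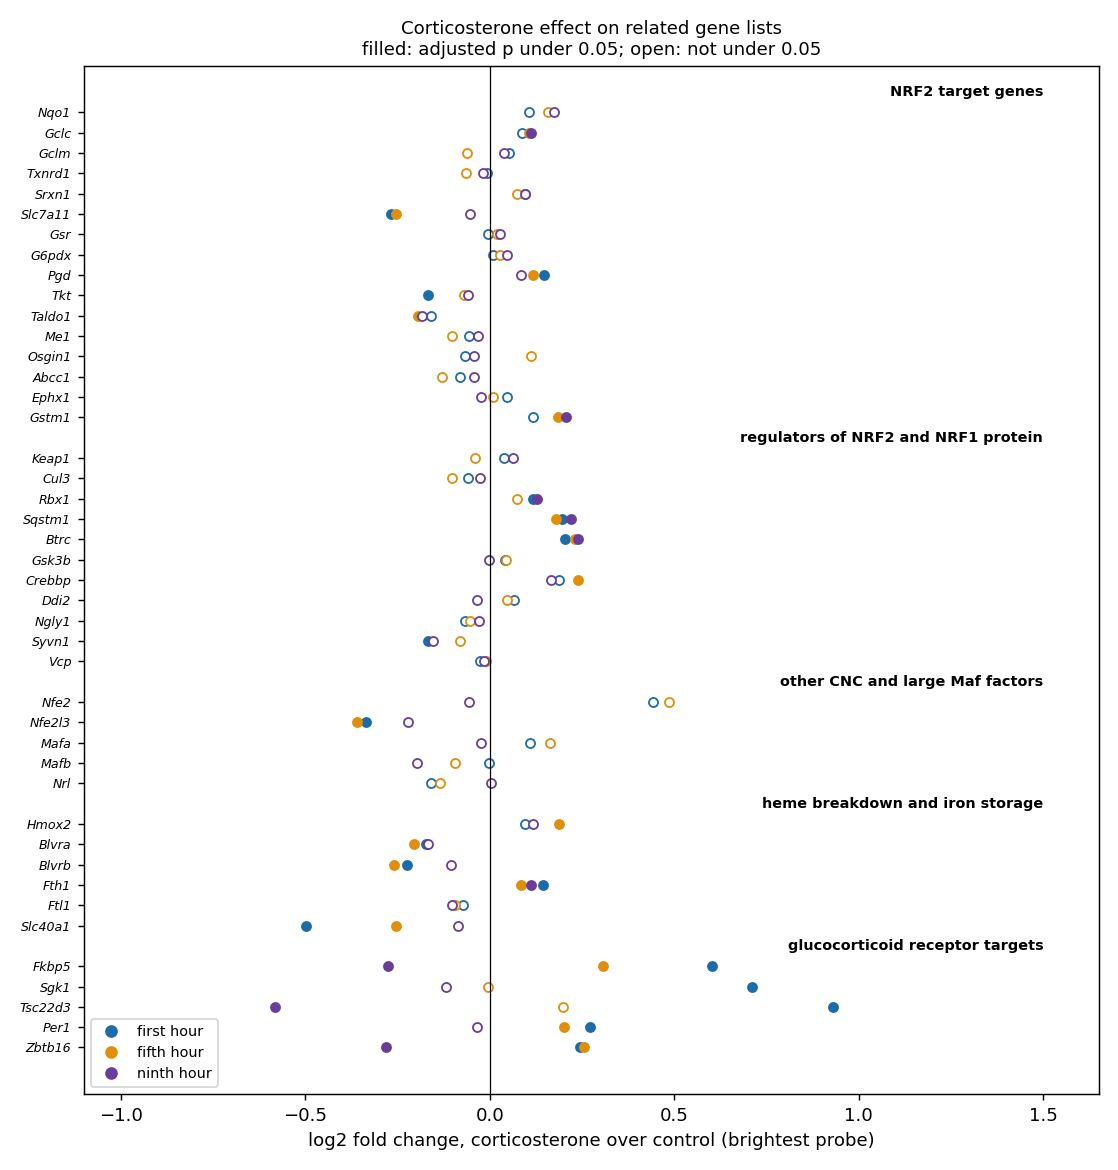
Log2 fold change of corticosterone-treated over control animals (x axis, log2 scale) for the genes of 5 related lists, by the brightest probe of each gene, in the first (blue), the fifth (orange) and the ninth hour (purple); filled points passed an adjusted p under 0.05. The NRF2 targets lie close to 0, from -0.27 for *Slc7a11* to 0.15 for *Pgd* in the first hour, while the 5 glucocorticoid receptor targets lie between 0.25 and 0.93 in that hour.

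The 5 genes whose log2 ratio over the 24 arrays was most like that of *Maff* were *Trib1*, *Slc2a1*, *Map3k6*, *Notch4* and *Ddc*. Pearson's r was 0.908 for *Trib1*, a pseudokinase, 0.90 for *Slc2a1*, the glucose transporter of the blood-brain barrier, and 0.855 to 0.871 for the other 3. The mean log2 ratio of each was positive in the first hour and smaller in the ninth, as *Map3k6* shows with 1.54, 0.70 and -0.21. This shared fall largely follows from the choice, since the genes were picked for likeness to *Maff* over these same arrays. Taken as deviations from the mean of each hour, r was 0.68 (*Ddc*) to 0.80 (*Trib1*). These values describe likeness over arrays that share hours, slides and normalization, and no test was made.

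**Figure D4:**
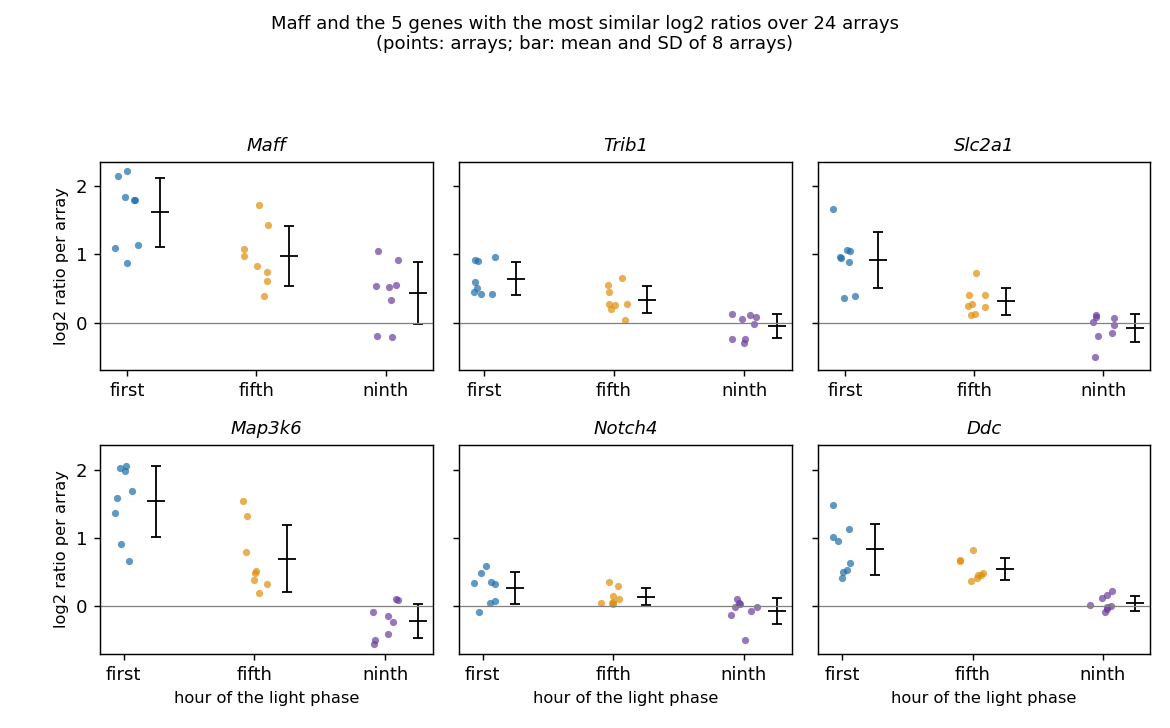
Log2 ratio of corticosterone-treated over control animal on each of the 24 arrays (y axis) for *Maff* and the 5 most similar genes, by hour of the light phase; points are arrays and bars the mean and SD of 8 arrays. The mean of *Maff* is 1.62, 0.98 and 0.44. Each of the other 5 genes, picked for likeness to *Maff* over these arrays, also has its lowest mean in the ninth hour.

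Markers of endothelial cells differed between treatments. In the first hour, when *Maff* was highest, 3 of 4 fell (*Flt1* to 0.66-fold, *Cldn5* to 0.78-fold and *Tek* to 0.81-fold) and *Pecam1* rose 1.22-fold. Their summed intensity was 8414 to 10620 in control and 5789 to 7648 in corticosterone-treated animals, with no overlap, as for 1.57% of all single probes. The sum came mostly from *Flt1* and *Cldn5*, with mean intensities of 4897 and 2915, against 161 for *Pecam1* and 162 for *Tek*. In the fifth hour, *Flt1* (0.73-fold) and *Tek* (0.84-fold) were lower and *Pecam1* higher (1.17-fold). The summed intensity was 8486 to 10990 against 6725 to 8356, again with no overlap, as for 0.979% of all single probes. In the ninth hour the sums overlapped, at 7610 to 9449 against 7197 to 8231, with *Flt1* lower (0.78-fold) and *Cldn5* higher (1.18-fold). Of 6 markers of microglia and macrophages 3 fell in the first hour, when 17.5% of all probes were called (18.1% and 13.9% in the later hours), with sums of 14280 to 16960 and 12300 to 16430. At each hour *Aldh1l1* rose and *Aqp4* fell among 5 astrocyte markers, and of the oligodendrocyte markers *Mbp* rose and *Mag* fell. Of 3 inhibitory neuron markers none was called in the first hour (limma; 2 had an unadjusted p under 0.05) and 2 were higher in the later hours. No marker of blood (0 of 3) or choroid plexus (0 of 4) was called at any hour (limma; 2 of the 3 blood markers had an unadjusted p under 0.05 in the fifth hour). The part of these cell types in the values of the 9 genes was not tested. Markers of endothelial cells, astrocytes and oligodendrocytes moved in both directions within a type. In whole tissue, changes of single marker genes, fewer cells of a type and less RNA per cell cannot be told apart.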

How the data were processed

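RNA of single hippocampi was hybridized to two-colour Agilent 8×60K mouse arrays, 8 at each hour. Per the file headers, the deposited intensity values came from Feature Extraction 10.7.3.1 with 62976 spots an array. The authors' log2 value table also holds ratios of corticosterone-treated over control signal: it matched loess within arrays with offset 50 (Pearson's r of 0.9999 over probes and arrays) and served as an alternative. Following the study's methods, median signals were background-corrected (normexp) and normalized by loess within and quantile between arrays in limma 3.58.1 (R 4.3.3). Control spots (3671) had weight 0 in loess and were then removed, and spots marked as outliers were set to missing. P-values came from limma's separate channel test with offset 50 (intraspot correlation 0.286, 6 groups in 1 fit, Benjamini-Hochberg over 56605 probes), and intensities, fold changes and SE from offset 0. Probes were named through transcript identifiers in RefSeq GRCm38.p6, from which gene coordinates were also taken. The number of arrays limits the precision. P-values set each difference against the spread between animals, which is mixed with that between arrays. This spread, which the SE also uses, was estimated over all 6 groups and not over the 8 arrays of a single hour. Per the paper, each control group was made up of siblings of a treated group, and litter was not in the fit.

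All 9 genes with every mapped probe were named. From each list, the 3 largest rises and falls called in the first hour were named, and other values are given as examples. The genes most like *Maff* were sought among probes with a mean intensity of 50 or more. The genes and lists were chosen with earlier results of these data known. Marker lists covered excitatory and inhibitory neurons, astrocytes, oligodendrocytes, microglia, endothelium, choroid plexus and blood. Alternatives concerned the offset, background correction, normalization, starting signal, dim probes, test, slide and outlier spots. Leaving out single arrays, and both arrays that spread most, was added after seeing the data. One cell type marker is not reported here.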

Additional observations from a re-analysis of the deposited data

Results flagged for a closer look

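The corticosterone effect on *Maff* differed between hours by a test of the difference itself: it was lower in the ninth than in the first hour by 1.18 on the log2 scale (-1.18, adjusted p = 0.000374, limma), with all 8 first-hour arrays higher and 6 of 8 in the ninth.

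In 12 of the 72 groups of 8 intensities, 1 animal lay apart from the rest by a gap past Dixon's 95% limit, which chance passes in about 1 of 20 groups. Of these, 5 came from the fifth-hour array 7. There *Nfe2l2* was at 269.8 in the corticosterone-treated animal (the nearest other animal at 556) and 337.6 in the control animal (574), *Bach1* at 180.0 in the corticosterone-treated animal (468), and *Bach2* at 107.3 in the corticosterone-treated (248) and 108.9 in the control animal (291). Another 3 came from the corticosterone-treated animal of the first-hour array 8, at 1106 for *Nfe2l2* (nearest 734), 856.3 for *Bach1* (588) and 660.7 for *Hmox1* (518). These are the 2 arrays that spread most over all brighter probes.

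The other 4 came in pairs from both channels of 1 array. *Bach2* on the first-hour array 6 was at 160.5 in the corticosterone-treated (nearest 241) and 170.7 in the control animal (276). *Mafk* on the ninth-hour array 4 was at 581.5 (377) and 349.6 (312). The causes were not tested.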

How the results depend on the processing

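No called value of the 12 probes changed sign under any alternative with a test. The first-hour count of 2 called probes (*Maff* and *Mafk*), the change of the effect between hours (1, *Maff*) and the control animals between hours (0) kept their counts under every setting, each slide and each single array left out included. The first-hour log2 fold change of *Maff* ranged from 0.96 to 2.26 over 15 settings with a test and 3 within single slides, with an adjusted p of at most 1.46e-05 (limma); within slides 1, 2 and 3 it was 1.55, 1.60 and 1.68.

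The fifth-hour count of 4 was 2 without slide 3, 3 in 8 of the 16 settings (without both arrays that spread most among them) and 4 in 7, in 2 of which (processed signals and log ratios) a *Bach2* probe was called and *Hmox1* was not. The ninth-hour count of 1 was 2 with offset 0 for the p-values, with no background correction, with Aquantile, with the scanner's processed signals, with the authors' value table and without both arrays that spread most; it was 3 with a separate fit for each hour and 0 without slide 1. The count of 2 in corticosterone-treated animals between hours was 1 with offset 0 for the p-values, with median centring, with processed signals and without slide 2 or slide 3. Leaving out 1 array in turn gave 2 to 2 calls in the first, 2 to 4 in the fifth and 1 to 2 in the ninth hour, 1 to 1 for the change of the effect, 0 to 0 in control and 1 to 2 in corticosterone-treated animals. The causes were not tested. In the ninth hour, *Maff* passed with processed signals (0.72, adjusted p = 0.014), with no background correction (0.29, adjusted p = 0.047, limma), with offset 0 for the p-values (adjusted p = 0.046) and with a separate fit for each hour (adjusted p = 0.016), as did *Nfe2l2* with the last (adjusted p = 0.019). *Mafk* in the ninth hour passed with Aquantile (0.22, adjusted p = 0.031) and the value table (0.21, adjusted p = 0.041), and *Bach2* in the fifth with limma on log ratios (-0.21, adjusted p = 0.036) and, by its second probe, with processed signals (adjusted p = 0.00441). *Hmox1* in the fifth hour passed in 6 of 15 settings, 2 of them at an adjusted p of 0.04996 and 0.04997. For the dim *Maff* and second *Nfe2l2* and *Bach2* probes, signal near background limits the values. Each array pairs a control with a corticosterone-treated animal; limma on the log ratios of these pairs gave 2, 4 and 1 calls at the 3 hours, in the fifth with *Bach2* and without *Hmox1* (0.38, adjusted p = 0.059). Between hours, no paired analysis was possible because each animal was killed at a single hour, so the hours hold different animals. Replicate numbers were given in accession order only and link no animals.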
